A study of Mus musculus with 45 samples.

Results

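The 10 genes described here encode 6 guanylate-binding proteins (GBPs; Gbp2, Gbp3, Gbp4, Gbp5, Gbp7 and Gbp9) and 4 immunity-related GTPases (IRGs; Irgm1, Irgm2, Igtp and Iigp1). They were chosen by name, with earlier results of these data known. All 10 are listed in all 3 deposited count tables and passed the low-count filter in every table. They are not the whole of both families, and other genes such as Gbp6 and Tgtp2 are also listed in all 3 tables and are counted further below. The tables list 55450 genes for slice microglia, 47643 for adult microglia and 43411 for brain tissue. The series holds 45 RNA sequencing samples of C57BL/6 mice in 7 groups. The titles of the adult microglia and brain tissue samples carry the label WT (wild type). Slice microglia were sorted as CD11b high, CD45 intermediate cells from neonatal brain slices that had been kept for 2 weeks on membrane inserts in medium with horse serum and platelet-derived growth factor, and then for 24 h in medium alone (9 samples), with tumor necrosis factor (TNF, 50 ng/mL, 11 samples) or with granulocyte-macrophage colony-stimulating factor (GM-CSF, 20 ng/mL, 9 samples). Each of these samples pooled 2 to 3 slices. Adult microglia, sorted by the same gate, came from female mice of 10 to 15 weeks that had received intraperitoneal lipopolysaccharide (LPS, a cell wall component of bacteria, 1 mg/kg, 4 samples) or phosphate-buffered saline (PBS, 4 samples) 24 h earlier. Whole brain tissue came from mice of that age given LPS in that dose and for that time (4 samples) or left untreated (4 samples), so that its control animals had received no injection. The study's text gives the in vivo LPS samples, of brain tissue and of microglia, as independent mice. It gives the cytokine samples as pooled from several independent experiments, without saying which sample belongs to which experiment. The p-values measure the spread between these samples.

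GBPs and IRGs are large GTPases that cells make in response to interferons and that defend single cells against bacteria and parasites living inside them. GBPs coat bacteria and the vacuoles of parasites and bring bacterial LPS to caspase-11, while the effector IRG Iigp1 (Irga6) loads onto parasite vacuoles and breaks them open. Irgm1, Irgm2 and Igtp (Irgm3) belong to the regulatory branch that keeps the effectors in an inactive state on the membranes of the host cell. Interferon gamma switches on these genes through gamma-activated sites (GAS) and through factors of the IRF family, which bind interferon-stimulated response elements (ISRE). In the mouse brain they are best known from infection with Toxoplasma.

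The members lie in a few clusters. On the GRCm38 assembly (GENCODE M21 annotation), Gbp5, Gbp7, Gbp3 and Gbp2 follow each other on the plus strand of chromosome 3 between 142493978 and 142638008, and Gbp9 and Gbp4 overlap on the minus strand of chromosome 5 between 105077630 and 105139586. Irgm1 lies on the minus strand of chromosome 11 between 48861968 and 48871683, and Igtp and Irgm2 share the start of a plus-strand locus on the same chromosome between 58199556 and 58222782. Igtp and Irgm2 share 162 exonic bases, which are 8.01% of Igtp and 4.39% of Irgm2, and 7.8% of the 75-base stretches of Igtp also occur in Irgm2. Gbp7 contains the processed pseudogene Gm43802, whose exon covers 11.3% of Gbp7, and Gm43802 had 0 counts in every slice and adult microglia library and at most 12 in a brain library. Only 2.06% of the 75-base stretches of Gbp3 occur in Gbp7. Gbp4 and Gbp9 share 75-base stretches with each other and with further GBPs (3.08% of Gbp4 and 3.61% of Gbp9). Over 50 bases, the read length stated for the adult microglia, the shared part is larger, at 11.8% of Igtp, 7.83% of Irgm2, 12.7% of Gbp7, 3.75% of Gbp3, 7.78% of Gbp4 and 8.05% of Gbp9. The levels of these genes are uncertain to that extent, since how the counting treated shared reads and strand is not known.

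Sequence upstream of the start was examined because both families are textbook interferon targets. RefSeq's promoter table (GRCm38.p6) listed 7 of the 10 members in 8 windows, of which the 250 bases before the start were searched on both strands, and it did not list Gbp4, Gbp9 or Iigp1. The ISRE core GAAANNGAAA was found in 7 of the 8 windows, the exception being the second window of Gbp3, against 2.98% of 32851 windows of the same length. The GAS core TTCNNNGAA was found in 4 windows (Gbp5, Gbp7, Irgm2 and Igtp), against 7.02%, and an NF-kB site in 1 (Gbp5), against 3.9%. Shown are the windows of Gbp2 and Gbp7, whose levels differed between TNF and GM-CSF in opposite directions, of Gbp3, which both raised, and of the neighbours Irgm2 and Igtp, of which only Igtp was called after LPS in adult microglia. All 5 are on the plus strand, at chr3:142620413-142620662 (Gbp2), chr3:142559794-142560043 (Gbp3), chr3:142530086-142530335 (Gbp7), chr11:58214727-58214976 (Irgm2) and chr11:58199306-58199555 (Igtp), and capitals mark ISRE and GAS cores on either strand.
Gbp2: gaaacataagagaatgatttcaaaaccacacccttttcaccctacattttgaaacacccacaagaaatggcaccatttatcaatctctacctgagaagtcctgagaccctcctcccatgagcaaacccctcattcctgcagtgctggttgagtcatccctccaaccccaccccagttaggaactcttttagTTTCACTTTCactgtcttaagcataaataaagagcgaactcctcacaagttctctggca
Gbp3: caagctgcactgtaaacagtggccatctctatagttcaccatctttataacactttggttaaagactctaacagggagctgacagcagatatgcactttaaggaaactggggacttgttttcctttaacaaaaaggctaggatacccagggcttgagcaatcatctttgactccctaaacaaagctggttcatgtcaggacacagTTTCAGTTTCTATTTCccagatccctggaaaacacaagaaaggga
Gbp7: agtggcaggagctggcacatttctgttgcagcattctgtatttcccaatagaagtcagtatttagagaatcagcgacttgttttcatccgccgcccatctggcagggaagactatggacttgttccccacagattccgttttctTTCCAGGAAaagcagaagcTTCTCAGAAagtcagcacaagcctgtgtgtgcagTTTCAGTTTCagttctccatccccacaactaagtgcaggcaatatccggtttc
Irgm2: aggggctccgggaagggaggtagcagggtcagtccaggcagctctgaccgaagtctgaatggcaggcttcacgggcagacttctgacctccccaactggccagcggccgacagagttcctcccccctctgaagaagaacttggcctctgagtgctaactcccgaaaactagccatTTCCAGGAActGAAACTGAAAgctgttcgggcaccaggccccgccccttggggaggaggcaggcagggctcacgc
Igtp: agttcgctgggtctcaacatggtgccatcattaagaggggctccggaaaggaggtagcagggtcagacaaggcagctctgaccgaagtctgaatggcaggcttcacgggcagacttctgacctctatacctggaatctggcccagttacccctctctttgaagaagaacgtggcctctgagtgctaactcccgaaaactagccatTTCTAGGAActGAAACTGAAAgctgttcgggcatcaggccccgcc
The first base of the ISRE core stood at position -59 from the start in Gbp2, at -45 and -39 (overlapping matches) in Gbp3, at -53 in Gbp7, at -64 in Irgm2 and at -34 in Igtp. GAS cores began at -106 and -87 in Gbp7, at -75 in Irgm2 and at -45 in Igtp. In Irgm2 and Igtp, 2 bases separated the GAS core from the ISRE core that followed it, the same spacing as in the IRG gene Tgtp2. These matches describe the letters only, and Gbp2 and the first window of Gbp3 held no GAS core.

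Counts per library ran from 5973364 to 9165485 for slice microglia, from 11391577 to 14216034 for adult microglia and from 8199881 to 10368603 for brain tissue. The 8 microglia markers summed to between 9920 and 25400 CPM (the count of a gene relative to the total of its library, with TMM scaling) in slice libraries and between 38600 and 60000 in adult microglia, against 232 to 398 in brain tissue, and none was at 0. Neuron markers summed to at most 7.41 CPM in either kind of sorted microglia and to 4270 to 4730 in brain tissue. The 5 neutrophil markers summed to 111 CPM in 1 TNF library. Of these, the granulocyte marker Ly6g was at 0 in all 29 slice libraries, and Mpo had counts in medium only. S100a8, S100a9 and Retnlg had counts in each slice group.

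In slice microglia kept in medium alone, the regulatory IRGs stood above the GBPs. Per kilobase of exon, mean levels were 20.3 CPM for Igtp, 11.7 for Irgm1 and 7.45 for Irgm2, and the libraries of neighbours in this order overlapped. Gbp2 followed at 2.16, then Gbp3 at 1.52, Gbp7 at 1.06 and Gbp9 at 0.945 CPM per kb, and every library of Irgm2 (5.31 to 11.8) lay above every library of Gbp2 (0.805 to 5.01). Iigp1 (0.189), Gbp5 (0.156) and Gbp4 (0.00222) were close to absent. Gbp4 had 1 count in all 9 medium libraries together. In adult microglia after PBS the order per length began with Igtp at 42.2, Irgm2 at 38.7, Gbp7 at 15.96 and Irgm1 at 12.8 CPM per kb, with no overlap between neighbours, and again ended with Iigp1 (0.233) and Gbp4 (0.197), whose libraries overlapped. In untreated brain tissue the members were closer together, from 2.24 CPM per kb for Igtp to 0.278 for Iigp1. The 3 tables were normalized separately, and brain tissue had another library kit than the microglia, so levels were not tested between them.

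TNF raised all 10 members in slice microglia. At an adjusted p under 0.05 (edgeR's quasi-likelihood test over 11313 genes) and a fold over 1.5, 10 of 10 were called higher and 0 lower, against 9.1% of all genes tested called higher and 11.7% called lower. Each of the 10 was higher in every TNF library than in every medium library, a separation found in 6.25% of genes. The median log2 change of the members was 2.75, against -0.03 over all genes, and it is the same with Gbp4 placed at the low end of its counting interval. The summed CPM of the members went from 160 ± 35.7 (SD, n = 9) to 892 ± 172 (SD, n = 11).

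Among the GBPs, Gbp2, a prenylated GBP of vacuole membranes, changed from a lowest, median and highest level of 2.02, 4.34 and 12.6 CPM in medium to 178, 258 and 454 CPM with TNF. The groups were far apart, the lowest TNF library standing well above the highest medium library, and the fitted change was 5.67 ± 0.33 (log2, SE), or 51.0-fold (adjusted p = 8.37e-15). Per length, Gbp2 moved from the fourth place to the first, at 110 CPM per kb, with overlap of its libraries with those of the next gene, Igtp (65.3). Gbp5, also a prenylated GBP, had lowest, median and highest levels of 0, 0.834 and 2.63 CPM in medium and of 19.03, 33.9 and 47.1 CPM with TNF, a 32.2-fold change. Gbp4 gave 451 counts in the 11 TNF libraries against the 1 count in medium, a ratio of pooled CPM of 379 with a 95% counting interval of 67.7 to 15000. Its fitted change of 7.53 ± 1.00 (log2, SE) depends on the prior count, and counting error is all that the interval covers. Gbp3 (7.78-fold), Gbp7 (5.83-fold) and Gbp9 (4.70-fold) had smaller changes.

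Among the IRGs, the effector Iigp1 changed most. Its lowest, median and highest levels were 0, 0.723 and 3.69 CPM in medium and 11.7, 29.3 and 48.4 CPM with TNF, a 26.9-fold change (adjusted p = 6.61e-08). The regulators, which were already expressed in medium, rose by less. Irgm1, which directs IRG effectors and autophagy in macrophages, had lowest, median and highest levels of 41.7, 64.9 and 105 CPM in medium and of 194, 254 and 323 CPM with TNF, a 3.67-fold change. Igtp rose 3.22-fold and Irgm2 2.51-fold, the smallest change in the set. All 10 calls held in the samples with title codes 1A and 1B and in those with 2A and 2B, codes whose meaning the labels do not give. The sizes varied between them, with log2 changes of 6.40 and 5.34 for Gbp2 and of 6.39 and 4.28 for Iigp1.

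**Figure D1:**
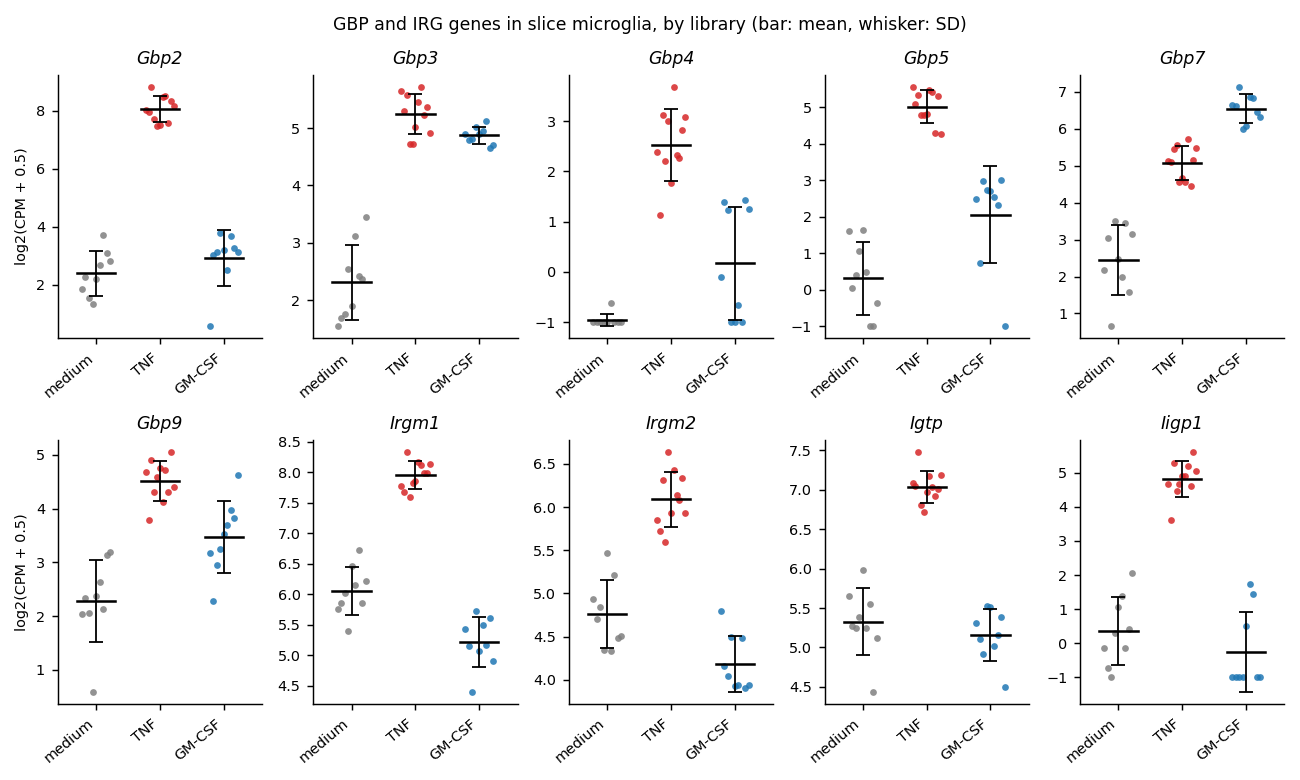
Level of each member in each slice microglia library, as log2(CPM + 0.5), in medium (n = 9), TNF (n = 11) and GM-CSF (n = 9), with the mean and SD of the plotted values. All TNF points lie above all medium points in each of the 10 panels, while GM-CSF points lie highest for Gbp7 and near or below the medium points for the 4 IRGs.

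GM-CSF divided the set. It raised 5 GBPs, lowered 2 regulatory IRGs and left 3 members without a call, against 4.84% of all genes called higher and 5.96% called lower. The median log2 change of the members was 0.92, against -0.04 over all genes. Of all calls 44.8% were higher, and 63.9% when libraries were scaled by total counts, where Irgm2 lost its call. The summed CPM of the 6 GBPs went from 22.3 ± 7.31 (SD, n = 9) in medium to 151 ± 24.9 (SD, n = 9), and that of the 4 IRGs from 138 ± 33.3 to 92.9 ± 17.8.

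Gbp7, a GBP tied to assembly of the phagocyte oxidase, responded most clearly. Its lowest, median and highest levels were 1.07, 5.11 and 10.8 CPM in medium and 63.1, 98.5 and 141 CPM with GM-CSF. The groups were far apart, and the fitted change was 4.01 ± 0.28 (log2, SE), or 16.1-fold (adjusted p = 5.87e-13). In samples with codes 1A and 1B the change was 4.10 and in those with codes 2A and 2B 3.96 (log2). Gbp3, its neighbour on chromosome 3, had lowest, median and highest levels of 2.41, 4.63 and 10.4 CPM in medium and of 24.7, 29.2 and 34.2 CPM with GM-CSF, again without overlap, a 5.85-fold change (adjusted p = 2.1e-11). These were the 2 members without overlap between GM-CSF and medium, a separation upward found in 2.93% of genes. Gbp9 (2.40-fold) and Gbp5 (4.64-fold) were also called higher with some overlap, 6 and 7 of 9 GM-CSF libraries standing above every medium library.

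Gbp4 was uneven between the GM-CSF libraries. It had 67 counts in all, 4 libraries held 13 to 18 counts and 3 held 0, and the ratio of pooled CPM to medium was 70.0 with a 95% counting interval of 12.1 to 2800. Gbp2, the GBP that TNF raised most among those measurable in medium, was not called. Its lowest, median and highest levels with GM-CSF were 0.975, 8.22 and 13.3 CPM, and the log2 change of 0.58 had a 95% interval of -0.09 to 1.24.

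Irgm1 and Irgm2, 2 of the 3 regulatory IRGs, were called lower. Irgm1 had lowest, median and highest levels of 20.7, 35.7 and 52.4 CPM with GM-CSF against 41.7, 64.9 and 105 CPM in medium, with 5 of 9 libraries under every medium library, and fell by 0.84 ± 0.15 on the log2 scale (adjusted p = 3.98e-05). Irgm2 had 14.5, 15.96 and 27.2 CPM against 19.6, 25.5 and 43.6 CPM, with 6 of 9 libraries under every medium library, and fell by 0.60 ± 0.16 (log2, SE, adjusted p = 0.00517). Igtp and Iigp1 were not called, with log2 changes of -0.19 (95% interval -0.464 to 0.088) and -0.69 (-2.11 to 0.734), and Iigp1 was at 0 in 6 of 9 GM-CSF libraries. The call of Irgm2 was lost under 6 of 12 alternatives (adjusted p from 0.00255 to 0.366) and that of Irgm1 under 1 (4.84e-07 to 0.0941), and in samples with codes 1A and 1B neither passed (log2 changes of -0.53 for Irgm1 and -0.33 for Irgm2), where 5 members were called against 7 in codes 2A and 2B. Under limma-voom Gbp4 and Gbp5 also lost their calls.

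**Figure D2:**
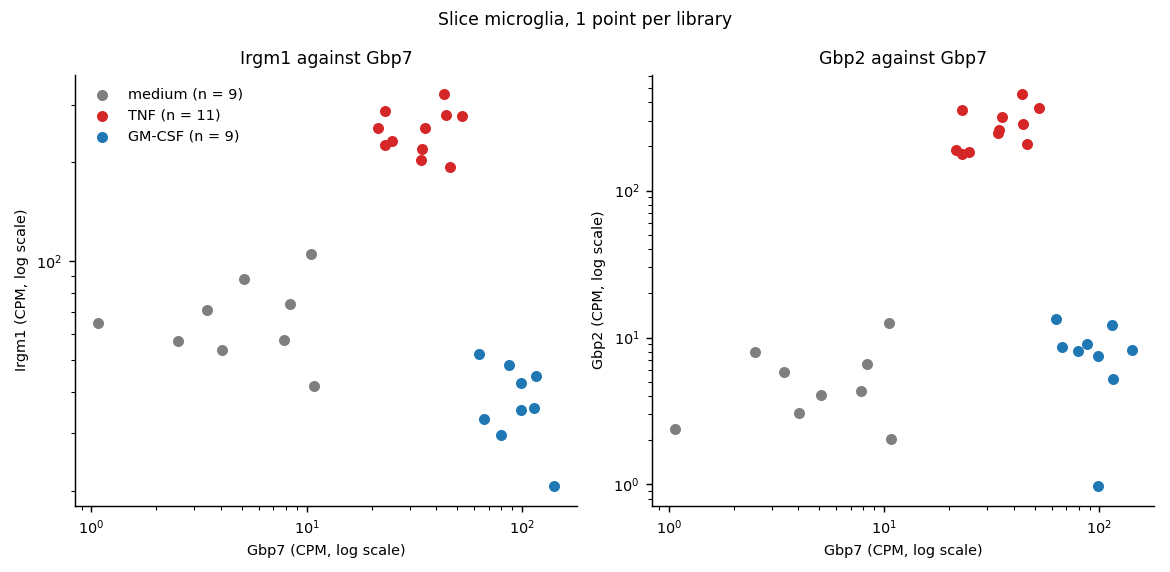
Irgm1 against Gbp7 (left) and Gbp2 against Gbp7 (right) in CPM on log axes, 1 point for each of the 29 slice microglia libraries. The groups form 3 separate clouds, with TNF libraries highest for Irgm1 and Gbp2 and GM-CSF libraries highest for Gbp7.

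TNF and GM-CSF were both set against the same medium libraries above, and they were also compared directly. TNF libraries were higher for 8 members and lower for 1, with 8.25% of all genes called higher and 7.96% lower. The median log2 difference of the members was 2.26, against -0.02 over all genes. With libraries scaled by total counts the median of all genes moved to -0.19 and the share of calls that were higher from 50.9% to 31.4%, and the members had the same 9 calls. Iigp1 differed by 43.3-fold, Gbp2 by 34.2-fold, Gbp5 by 6.95-fold and Irgm1 by 6.58-fold, and for each of these every TNF library stood above every GM-CSF library. The size for Iigp1 is loose, since GM-CSF libraries held 45 counts in all and 6 of 9 were at 0, and its log2 difference was 10.61 in codes 1A and 1B, where all GM-CSF libraries were at 0, and 4.78 in codes 2A and 2B. Gbp7 was the exception. Its TNF libraries (21.5 to 52.4 CPM) all lay under its GM-CSF libraries (63.1 to 141 CPM), a difference of -1.47 ± 0.23 (log2, SE), or 2.76-fold (adjusted p = 3.59e-06), which was -1.54 in codes 1A and 1B and -1.41 in codes 2A and 2B. Gbp3 was not called (log2 difference 0.41, 95% interval 0.0496 to 0.771, adjusted p = 0.0916). In either pair of codes 8 members were called, Gbp4 missing in 1A and 1B and Gbp9 in 2A and 2B.

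Microglial markers moved with both cytokines. Their summed level had a median of 22900 CPM in medium, 11400 with TNF and 13500 with GM-CSF, and P2ry12, Tmem119, Trem2 and Cx3cr1 were called lower under each. Monocyte and border macrophage markers overlapped between the 3 groups (265 to 640, 288 to 516 and 249 to 766 CPM in the same order) in their sum, but of the 4 tested Mrc1 and Lyve1 were called lower with TNF (log2 changes of -1.70 and -3.15) and none with GM-CSF. Neutrophil markers had medians of 1.94, 7.62 and 9.33 CPM. Of the 2 tested, S100a8 was called higher with TNF (log2 change 2.18) and none with GM-CSF. The part of these shifts in the changes above was not tested.

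In adult microglia, LPS raised 8 of the 10 members. The 8 calls higher and 0 lower stand against 14.4% of all genes called higher and 13% called lower, and the members' median log2 change was 1.01 against 0.01 over all genes. For 6 members every LPS library lay above every PBS library, a separation found in 24.1% of genes. Gbp7 was measured at 89.9, 90.7, 81.0 and 96.7 CPM after PBS and at 298, 259, 289 and 281 CPM after LPS. The groups were far apart and the libraries close together, so that this change of 1.65 ± 0.07 (log2, SE), or 3.15-fold, had the smallest error in the set (adjusted p = 4.64e-08). Gbp2 stood at 6.89, 9.56, 8.78 and 7.21 CPM after PBS and at 48.9, 15.2, 31.1 and 33.3 CPM after LPS, a 3.97-fold change (adjusted p = 0.000999). The second LPS library was the lowest of its group for Gbp2, as it was for 8 of the 10 members, but still above all PBS libraries.

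Gbp3 (2.00-fold) and Gbp5 (1.97-fold) also rose without overlap. Of the regulatory IRGs, Irgm1 was at 73.3, 75.2, 74.3 and 75.4 CPM after PBS and at 189, 92.6, 158 and 162 CPM after LPS, a 2.02-fold rise (adjusted p = 0.00164), and Igtp rose 1.98-fold. Irgm2 did not follow them. It stood at 148, 145, 135 and 142 CPM after PBS and at 146, 109, 152 and 136 CPM after LPS, with a log2 change of -0.07 and a 95% interval of -0.255 to 0.112, and without the second LPS library the change was 0.02. Gbp9 was not called either, at 51.0, 48.1, 38.7 and 47.9 CPM after PBS and 61.0, 35.6, 51.8 and 65.7 CPM after LPS (log2 change 0.21, 95% interval -0.13 to 0.543). The PBS and LPS libraries overlapped for both genes.

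Gbp4 and Iigp1 were scarce in adult microglia, with 80 and 75 counts over the PBS libraries and 169 and 183 over the LPS libraries. Their groups overlapped, and their calls (2.17-fold, adjusted p = 0.0303, and 2.51-fold, adjusted p = 0.0361) were each lost under 6 of 15 alternatives, over which the adjusted p ran from 0.0068 to 0.113 and from 0.00585 to 0.0998. Leaving out single libraries left 6 to 8 members called. Neutrophil markers summed to 15.5 to 37.2 CPM after PBS and 1.61 to 4.74 CPM after LPS, and monocyte and border macrophage markers to 16.2 to 22.2 and 27.7 to 40.6 CPM. Endothelial markers went from 28.9 to 36.3 CPM to 10.2 to 13.7 CPM and microglia markers from 53700 to 60000 CPM to 38600 to 43400 CPM. The part of these shifts in the changes was not tested.

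In whole brain tissue LPS raised 9 of 10 members. Of the 15083 genes tested, 2.63% were called higher and 0.55% lower, which is 479 genes, or 1533 without the fold limit, and the members' median log2 change was 1.59 against 0.0029 over all genes. For all 10 members every LPS library lay above every untreated library, a separation found in 9.09% of genes. A change in tissue can come from more cells of a type or from more RNA per cell, and these cannot be told apart here. Irgm1 was at 7.74, 9.33, 7.76 and 8.15 CPM without treatment and at 23.5, 18.4, 24.9 and 20.6 CPM after LPS, a 2.64-fold rise (adjusted p = 1.17e-06). Irgm2 was at 4.22, 4.86, 3.83 and 4.07 CPM and then at 12.1, 13.2, 19.1 and 9.55 CPM, a 3.16-fold rise (adjusted p = 0.000107), in contrast to the sorted microglia. Igtp rose 3.21-fold and Iigp1 3.94-fold.

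Of the 6 GBPs, 5 rose. Gbp2 was at 3.72, 3.50, 3.31 and 3.03 CPM without treatment and at 12.1, 11.3, 29.7 and 12.1 CPM after LPS, a 4.77-fold change (adjusted p = 0.0122), the third LPS library standing far above the others. That library was the highest of its group for all 10 members. Gbp5, at 3.42, 5.05, 4.14 and 4.18 CPM and then 8.33, 8.02, 22.6 and 9.10 CPM, was the member not called (log2 change 1.503 ± 0.40, SE, adjusted p = 0.0592), and without the third LPS library it was called with a log2 change of 1.01 (adjusted p = 0.000114, over all alternatives 4.25e-05 to 0.147). Gbp4 rose 3.87-fold, Gbp3 2.85-fold, Gbp7 2.13-fold and Gbp9 1.93-fold, and all 10 members were called without the third library. Endothelial markers summed to 140 to 160 CPM without treatment and 150 to 216 CPM after LPS, neutrophil markers to 0.389 to 0.931 and 2.9 to 6.74 CPM, and microglia markers to 273 to 308 and 232 to 398 CPM. Their part in the changes was not tested.

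Gbp4 and Iigp1 had higher mean CPM in untreated brain tissue than in PBS microglia, where the other 8 members had lower means in brain tissue. Gbp4 had a mean of 4.70 ± 0.68 CPM (SD, n = 4) in untreated brain tissue and 1.48 ± 0.62 CPM in PBS microglia, and Iigp1 1.62 ± 0.26 and 1.36 ± 0.84 CPM. Gbp7, in contrast, had 6.25 ± 1.36 CPM in brain tissue and 89.6 ± 6.48 CPM in microglia, and Irgm2 4.25 ± 0.44 and 143 ± 5.51 CPM. Microglia markers summed to medians of 287 and 55100 CPM in the same groups. These levels come from separately normalized tables with different kits and were not tested.

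**Figure D3:**
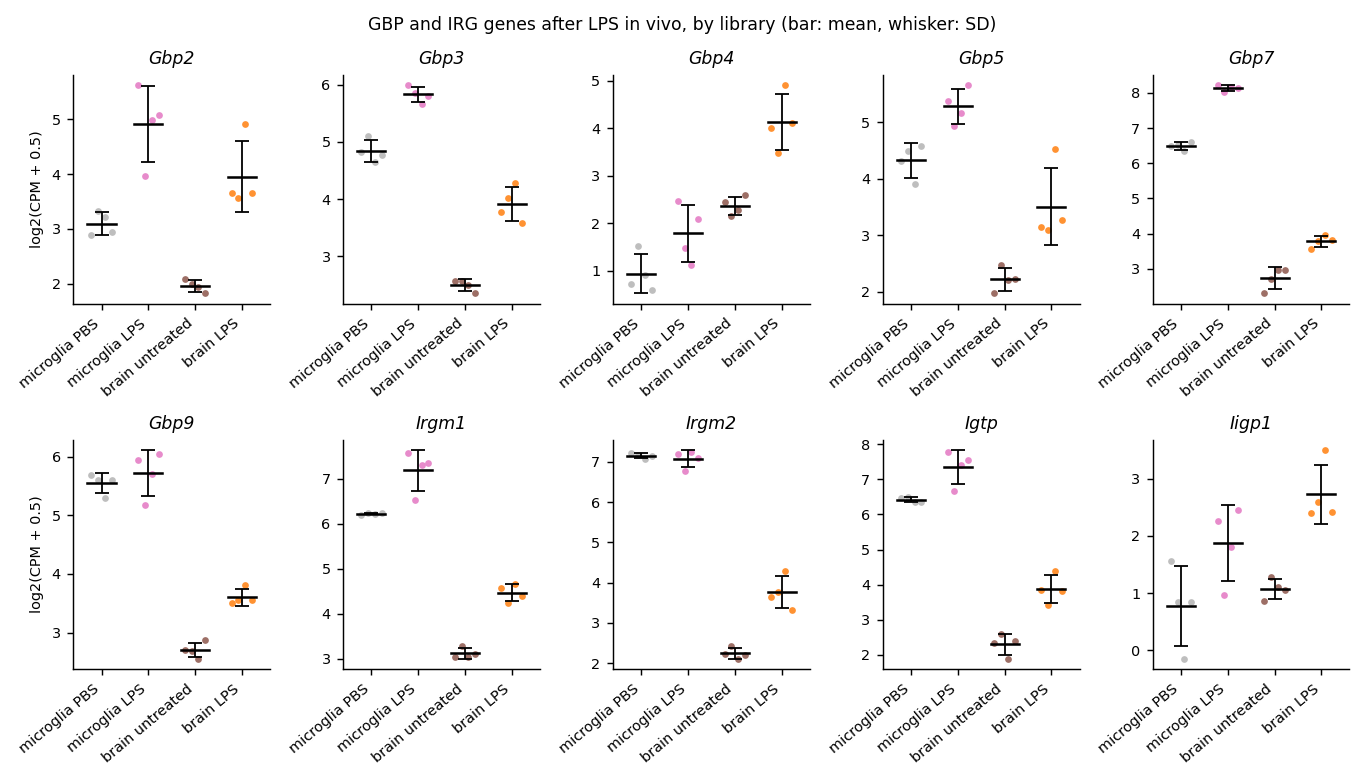
Level of each member in each in vivo library, as log2(CPM + 0.5), in adult microglia after PBS or LPS and in brain tissue untreated or after LPS (n = 4 each), with the mean and SD of the plotted values. Irgm2, Gbp9, Gbp4 and Iigp1 overlap between PBS and LPS in microglia, while no member overlaps between untreated and LPS in brain tissue. The same brain LPS library is the highest of its own group in every panel.

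Whether LPS acted differently on the members in adult microglia and in brain tissue was asked with an interaction term fitted to the 16 samples taken in vivo. It called 2 members, both with the smaller change in microglia, while 9.1% of 16676 genes were called higher and 10.6% lower. Irgm2 differed most, by -1.74 ± 0.22 (log2, SE, adjusted p = 7.46e-06), and Gbp9 differed by -0.75 ± 0.23 (adjusted p = 0.0171), a call that limma-voom did not make. Gbp7 had the opposite sign, with the larger change in microglia, at 0.56 ± 0.16 (adjusted p = 0.0094), which is 1.47-fold and under the fold limit, as was Gbp3 at -0.52 ± 0.20 (1.44-fold, adjusted p = 0.0469). Gbp2, Gbp4, Gbp5, Irgm1, Igtp and Iigp1 had adjusted p-values of 0.173 to 0.799, and with intervals such as -1.82 to 0.495 for Iigp1 and -1.83 to 0.154 for Gbp4 this does not show that they changed alike. Tissue, library kit, the labels' study code and kind of control coincide in this test and cannot be told apart.

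**Figure D4:**
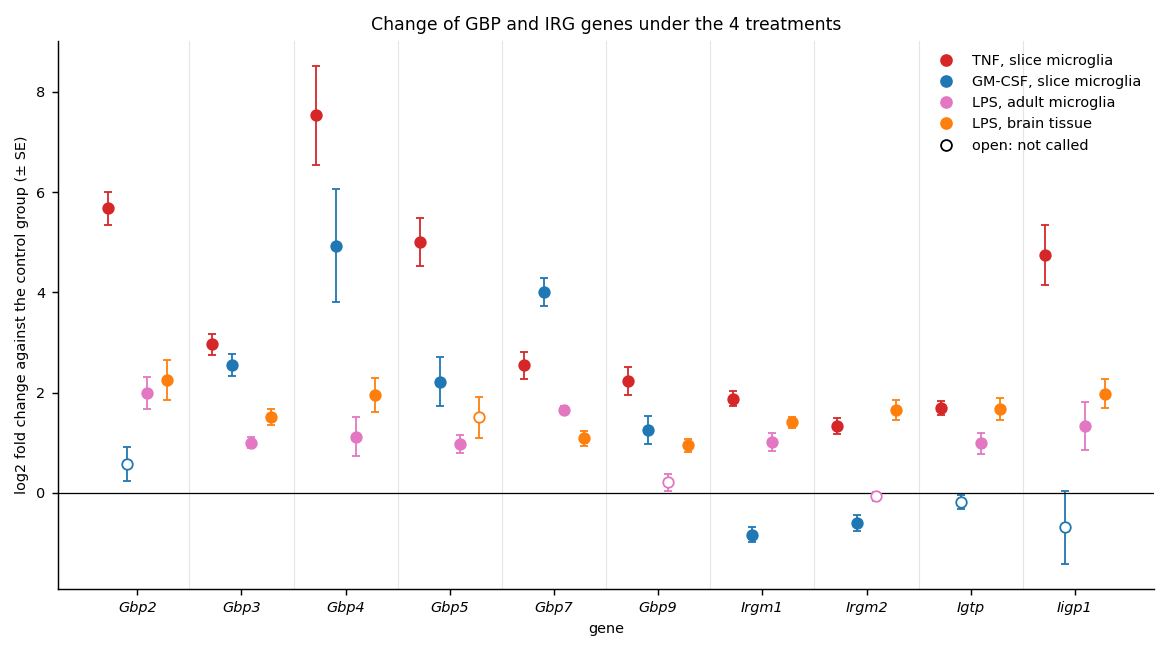
Log2 fold change and SE of each member against its control group under TNF and GM-CSF in slice microglia and LPS in adult microglia and brain tissue, with filled points called at an adjusted p under 0.05 and a fold over 1.5. The TNF point is the highest for 8 genes, the exceptions being Gbp7 (GM-CSF highest) and Irgm2 (LPS in brain tissue highest). For Igtp, 1 of the 8, the TNF point (1.69 ± 0.14, SE) is level with LPS in brain tissue (1.68 ± 0.22). The GM-CSF points of the 4 IRGs lie under 0.

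Other genes of both families were counted from a list. Of 17 listed, 9 were tested in slice microglia. TNF raised 5 of them and lowered 0, with a median log2 change of 3.03. The background shares for this comparison, over every gene tested, were 9.1% up and 11.7% down. Gbp6, a GBP of the chromosome 5 cluster, went from 11 counts in the 9 medium libraries to 536 in the 11 TNF libraries (log2 change 5.30 ± 0.59, SE), and Tgtp2, an effector IRG, from 11 to 356 (4.70 ± 0.57). Ifi47 (3.11), Gm12250 (3.03) and Gm4951 (3.21) also rose. GM-CSF raised 0 of the 9 and lowered 2, 9930111J21Rik1 (-1.38) and 9930111J21Rik2 (-0.91), with a median of -0.80. These 2 calls were lost under 2 of 11 alternatives (adjusted p from 0.0123 to 0.513) and 5 of 12 (0.0232 to 0.436). The background shares for GM-CSF were 4.84% up and 5.96% down. After LPS, 5 of 11 tested rose and 1 fell in adult microglia, and 6 of 7 rose and 0 fell in brain tissue, where Tgtp2 had the largest log2 change at 3.17. Background shares were 14.4% up and 13% down in adult microglia, and 2.63% up and 0.55% down in brain tissue. 9930111J21Rik2 fell by 0.62 in adult microglia and rose by 0.69 in brain tissue, and the interaction called this difference (-1.33 ± 0.17, log2, SE, adjusted p = 5.69e-06). Tgtp1 and Tgtp2 are near-identical copies, and their split is uncertain.

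Genes of the interferon pathway were called mainly higher with TNF, and lower where called with GM-CSF. Of 20 listed genes 17 were tested in slice microglia, and TNF raised 9 and lowered 1, with a median log2 change of 0.68. Over all genes, 9.1% were called higher with TNF and 11.7% lower. Irf1, an ISRE-binding factor, had lowest, median and highest levels of 29.02, 36.2 and 52.6 CPM in medium, 81.7, 94.9 and 133 CPM with TNF and 13.1, 20.6 and 33.5 CPM with GM-CSF. All TNF libraries stood above all medium libraries, while GM-CSF and medium libraries overlapped. Irf1 rose by 1.35 ± 0.15 (log2, SE) with TNF and fell by 0.78 ± 0.15 with GM-CSF, and Usp18, a feedback inhibitor of the type I interferon receptor, rose by 4.33 ± 0.21 and fell by 1.17 ± 0.22. GM-CSF raised 0 of the 17 and lowered 5, with a median of -0.44, while 4.84% of all genes were called higher and 5.96% lower. Ifngr1, a chain of the interferon gamma receptor, was called lower under both (-0.73 with TNF and -0.78 with GM-CSF). Counts of Ifng itself were 0 in the 9 medium and 0 in the 9 GM-CSF libraries and 3 in 1 of the 11 TNF libraries.

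After LPS the same list gave 6 calls higher of 17 in adult microglia and 6 of 15 in brain tissue, and 0 lower in either, where 14.4% and 2.63% of all genes were called higher. Nlrc5, an activator of major histocompatibility class I genes, rose by 1.89 ± 0.43 (log2, SE) in microglia and by 2.50 ± 0.28 in brain tissue. Irf8, a myeloid IRF, had a log2 change of -0.43 ± 0.07 in microglia, under the fold limit, and rose by 0.68 ± 0.15 in brain tissue, and the interaction called the difference (-1.11 ± 0.14). Ifng had 0 counts in all 8 adult microglia libraries.

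Genes that work beside the GBPs and IRGs were counted in the same way. Of 11 genes for cytosolic LPS sensing and inflammasomes, TNF raised 5 and lowered 0 (median log2 change 0.56), GM-CSF raised 1 and lowered 1 (-0.09), and LPS raised 2 of 10 and lowered 1 in adult microglia and raised 1 of 6 in brain tissue. Of all genes, 4.84% were called higher and 5.96% lower with GM-CSF and 14.4% and 13% in adult microglia, so the counts there are near the background. Casp4, which encodes the LPS-binding caspase-11, rose by 1.54 ± 0.20 (log2, SE) with TNF, fell by 0.78 ± 0.21 with GM-CSF (lost under 2 of 12 alternatives, adjusted p from 0.00129 to 0.125) and rose by 0.81 ± 0.13 after LPS in adult microglia. Il1b rose under all 3 of these treatments, by 3.70, 1.495 and 4.89. Of 19 conjugation and autophagy genes that help to place these GTPases on vacuoles, TNF raised 2 and lowered 3, GM-CSF lowered 1, and LPS lowered 7 in adult microglia and 0 of 18 in brain tissue. The counts with TNF stand beside 9.1% higher and 11.7% lower over all genes, and those with LPS in adult microglia beside 13% lower. Map1lc3a, an LC3 gene, was called lower under TNF (-0.96), GM-CSF (-0.87) and LPS in adult microglia (-1.62). None of the 6 enzymes that attach or process prenyl anchors was called in these 4 comparisons. The shares over all genes ran from 0.55% (lower in brain tissue) to 14.4% (higher in adult microglia), so 0 of 6 is near the background. Fnta was under the fold limit with TNF (log2 change -0.46, edgeR adjusted p = 9.2e-06), where its groups did not overlap. It had -0.56 after LPS in adult microglia, and the interaction called it lower (-0.67).

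Across the 29 slice libraries, the genes whose log2 CPM followed the mean of the 10 members most closely were Sod2 (Pearson's r = 0.981), Psme2 (0.974), Clec5a (0.970), Prdx5 (0.969) and Fpr2 (0.967). The libraries form 3 treatment groups and share them across genes, so these values are a description. Gbp7 followed a different course, with r between -0.11 and 0.48 to every member other than Gbp3 (0.809), while Irgm1 and Irgm2 had r = 0.944. The genes closest to Gbp7 were Kars (0.929), Prpf31 (0.918), Ybx3 (0.918), Hspd1 (0.91) and Cish (0.908). Cish, a target of STAT5 in cytokine signalling, was chosen for mention after its values were seen. It had 24 counts in the medium libraries, 298 in the TNF libraries and 1436 in the GM-CSF libraries, with log2 changes of 3.39 with TNF and 5.77 with GM-CSF.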

How the data were processed

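RNA was sequenced from slice microglia and adult microglia (SMART-Seq v4 amplification with Nextera XT libraries) and from whole brain (TruSeq mRNA libraries). For slice microglia the authors deposited raw counts per gene. The submitters' processing notes name STAR 2.7.0a, featureCounts and Subread 1.6.4 for them. For adult microglia and brain tissue the authors deposited expected counts, which are estimates and were rounded here to whole numbers. The sources used here do not give their aligner and counter, nor for any table the strand setting or how shared reads were treated. The notes name the mm10 build for all tables. For brain tissue, 92 rows name no gene and hold 0 counts. Per-sample columns without a sample numbered 0.

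Genes were kept by edgeR's filterByExpr (minimum count 10, minimum total 15), scaled by TMM and tested within each table by edgeR's quasi-likelihood test (R 4.3.3, edgeR 4.0.16, limma 3.58.1) over all groups of the table. The difference between LPS effects was an interaction over both in vivo tables. P-values were adjusted by Benjamini-Hochberg over all genes tested, and a call needed an adjusted p under 0.05 and a fold over 1.5. SE and 95% intervals are of the log2 fold change. Depth limited precision for genes of few counts, above all Gbp4 and Iigp1, and counting intervals cover counting error only. The scripts were tested on simulated data. Alternatives were other scalings, filters, DESeq2 1.42.0, limma-voom, a replicate block, the title codes, the 2 groups alone and, for the in vivo groups, leaving out each library.

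All 10 members are named, and other genes come from lists of the pathway, the 5 genes most like the members and the 5 most like Gbp7. The members and lists were chosen with earlier results of these data known. Replicate numbers were not taken to pair the samples, though 25 of 27 slice pairs of equal number correlated above 0 (at most 0.184).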

Additional observations from a re-analysis of the deposited data

Results flagged for a closer look

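Of 60 groups of levels examined for a library far from the others, 5 held one, and chance flags about 1 in 20 groups. In brain tissue after LPS the highest library stood apart for Gbp2 (29.7 CPM, the next at 12.1), Gbp5 (22.6 CPM, the next at 9.1), Gbp9 (13.5 CPM, the next at 11.2) and Iigp1 (10.8 CPM, the next at 5.54), and all 4 are the third LPS library, so they are not independent. In medium, Gbp4 was at 0.149 CPM in 1 slice library, which is 1 count, and at 0 in the other 8.

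The effect of LPS differed between adult microglia and brain tissue for Irgm2, by -1.74 on the log2 scale (edgeR interaction, adjusted p = 7.46e-06), and for Gbp9, by -0.75 (adjusted p = 0.0171). In brain tissue all 4 LPS libraries stood above every untreated library for both genes. In microglia 1 of 4 LPS libraries stood above and 1 under every PBS library for Irgm2, and 3 above and 1 under for Gbp9.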

How the results depend on the processing

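Over the alternatives run, members kept direction and side of the threshold in 119 of 119 values with TNF, 117 of 119 between TNF and GM-CSF, 108 of 117 with GM-CSF, 145 of 158 with LPS in adult microglia, 156 of 159 in brain tissue and 230 of 240 for the difference between LPS effects. With GM-CSF, limma-voom called 4 members in place of 7. The difference between LPS effects had 2 members called, 4 without the fold limit and 1 under limma-voom. The sign turned for 2 values that were not called. Irgm2 in adult microglia ranged from -0.13 to 0.022 as single libraries were left out (0.022 without the second LPS library), and Gbp2 in the difference between LPS effects from -0.54 to 0.17 (0.17 without the third brain LPS library). Leaving out single libraries gave 6 to 8 called members in adult microglia, 9 to 10 in brain tissue and 2 to 3 for the difference. The causes were not tested. Where the filter asked for a count of 50, fewer members were tested.

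Over all genes, calls without the fold limit went from 2353 to 4476 with TNF, 1222 to 2892 with GM-CSF, 1833 to 3486 between them, 3563 to 6703 in adult microglia, 479 to 1533 in brain tissue (share higher 82.7% and 59.6%) and 3289 to 5135 for the difference. The stricter filter left 288 calls in brain tissue, and codes 2A and 2B alone 785 with GM-CSF.

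Correlations between samples of equal number were weak (from -0.033 to 0.0206 in adult microglia, -0.078 to 0.0428 in brain tissue and -0.0415 to 0.184 in slices, 8 of 27 pairs over 0.1 and 25 of 27 above 0), so the numbers were not taken to pair them. With a replicate block the called members were 10 with TNF, 6 with GM-CSF (Irgm2 lost), 9 between them, 7 in adult microglia (Gbp4 lost), 10 in brain tissue (Gbp5 gained) and 2 for the difference.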
